A study of Mus musculus with 72 samples.

Results

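Type I interferon stimulated genes are the genes that cells switch on when interferon alpha or beta binds its receptor, and they were followed here through hapten-induced colitis of the mouse colon. The set was a list of 37 gene symbols, chosen by name from what is known of the pathway and not by a threshold on measured values. Each gene was represented by the probe set of highest mean among the probe sets that the platform annotation gives to that gene alone. By this rule 35 of the 18193 genes on the array were members, 33 of them were bright enough to be tested, and Oas2 and Mx2 were too dim. Isg15 was covered only by a probe set that it shares with Gm9706, and Ifi44 was not analysed here.

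Interferon alpha and beta bind the receptor pair Ifnar1 and Ifnar2, whose kinases Jak1 and Tyk2 activate the transcription complex ISGF3. It contains Stat2 and Irf9 and binds the interferon-stimulated response element in the promoters of its target genes. The products inhibit viral translation, degrade or sense viral RNA, load antigen and, through Irf7, raise interferon production further. In the healthy gut, commensal microbes maintain a low interferon tone, and interferon gamma, which has a receptor of its own, induces an overlapping set of genes.

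All mice were wild type Balb/c animals, and 72 colons were profiled, 1 array per mouse, from RNA of whole rolled colon. TNBS, a hapten given into the rectum in ethanol, was dosed at 70 μg per g of body weight in all groups except the naive one, and tissue was taken on day 4. The combination group (15 mice) received TNFR-Ig at 0.3 mg/kg together with the antibody anti-TWEAK (mP2D10) at 10 mg/kg before TNBS. The anti-TWEAK group (14 mice) received 10 mg/kg of that antibody alone, and the TNFR-Ig group (12 mice) received 0.3 mg/kg of the soluble TNF receptor fusion alone. A control IgG group (15 mice) received 10 mg/kg of an IgG2a antibody against human CD20, and an untreated TNBS group (8 mice) received TNBS with no agent. Naive mice (8) had neither TNBS nor an agent. TNFR-Ig neutralises TNF and anti-TWEAK neutralises the TNF family cytokine TWEAK. The TNFR-Ig group had no antibody at the control dose, so its comparison with control IgG also compares mice without and with an irrelevant antibody. Untreated mice had none either, so comparing anti-TWEAK or combination mice with them also compares mice with and without an antibody. The same holds for combination against TNFR-Ig mice. The mice came from experiments labelled 7 (34 arrays) and 10 (38 arrays), and naive mice were present in experiment 10 alone. The experiments also differed in array run, except that replicates 7 and 8 of the combination in experiment 7 were run with experiment 10.

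Values are log2 levels as deposited, on which 1 unit is a doubling. Array medians lay between 4.60 and 4.77, and the lowest value on any array, the floor, was 2.077. The number of mice per group limits the precision. Colonocyte markers were measured in every group, with no marker at the floor throughout a group, so colon tissue was represented on every set of arrays. The summed log2 level of 8 exocrine pancreas markers ran from 34.7 to 107.3 over the arrays. Its highest values within the groups lay between 88.2 and 107.3, so arrays with high levels were present in every group, and their part in the results was not tested. The first naive array carries a treatment label that contradicts its title and was kept as naive. A difference was called where limma's p, adjusted by Benjamini and Hochberg's method over all 12534 genes tested, was under 0.05, and the share of those genes called is given beside each count. Counts of members at an unadjusted limma p under 0.05 have no such share beside them, so no excess over all genes can be read from them. In whole tissue, fewer cells of a type and less RNA per cell cannot be told apart.

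The response element sequence is shown first, because it is the known binding sequence of ISGF3 and does not depend on the measured levels. Promoter windows from RefSeq (GRCm38.p6), covering 250 bases before to 50 after the annotated start, were available for 28 of the 37 listed genes. The core of the element, GAAA, then any 2 bases, then GAAA, was searched on both strands (on the other strand it reads TTTC, any 2 bases, TTTC) and was found in 12 of these 28 windows (42.9%), against 1079 of the 27025 genes with a window (3.99%). Matches were allowed to overlap each other, as they do in Isg15, Oas1a and Bst2, and a match is not by itself a bound site. Among the tested members that hold the core, the 4 below had the largest differences between untreated colitis and naive mice, although the size of that of Oas3 is limited by the floor. Their sequence from 160 to 61 bases before the start is given 5′ to 3′ on the gene's strand with the core in capitals, at chr19:34640729-34640828 (plus strand) for Ifit1, chr19:34583369-34583468 (plus) for Ifit3, chr5:120777720-120777819 (minus) for Oas3 and chr12:26456513-26456612 (minus) for Rsad2.
Ifit1: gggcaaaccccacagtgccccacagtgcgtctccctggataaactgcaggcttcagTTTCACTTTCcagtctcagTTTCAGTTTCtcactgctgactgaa
Ifit3: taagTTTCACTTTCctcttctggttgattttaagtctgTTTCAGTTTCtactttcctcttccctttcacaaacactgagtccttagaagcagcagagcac
Oas3: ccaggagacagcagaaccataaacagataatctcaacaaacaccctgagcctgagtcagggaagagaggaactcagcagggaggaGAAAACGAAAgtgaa
Rsad2: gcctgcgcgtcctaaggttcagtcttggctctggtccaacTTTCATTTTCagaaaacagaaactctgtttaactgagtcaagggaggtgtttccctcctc
Ifit1 and Ifit3 each carry the core in 2 copies in this window, while Oas3 and Rsad2 carry it singly. These genes were lower in untreated colitis than in naive mice, but the promoter windows of Ifitm3 and Trim30a, the members that were higher, hold the core too. The members also lie together on the chromosomes: Ifit1, Ifit2 and Ifit3 adjoin on chromosome 19, Oas1a, Oas2 and Oas3 on chromosome 5, Parp14, Dtx3l and Parp9 on chromosome 16, and Psmb8, Psmb9 and Tap1 on chromosome 17.

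The first comparison asked how untreated TNBS colitis differed from healthy colon. Most interferon stimulated genes were lower in the inflamed colon: 21 of 33 fell and 2 rose, where 25.6% of all tested genes fell and 22.2% rose. The median difference of the members was −0.54 log2 units, against −0.01 over all genes. Among the members that fell were the 3 IFIT genes, Irf7, Irf9, Stat2 and 3 of the 4 OAS family genes tested, while the antigen processing genes Psmb8, Psmb9 and Tap1 did not pass the test. The members that rose were Ifitm3 and Trim30a.

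The IFIT proteins bind viral RNA and block its translation, and Ifit1 and Ifit3 had the largest differences among the 33 members. Ifit1 lay at 5.39, 7.39 and 9.74 (lowest, median and highest) in the 8 untreated mice, against 9.55, 9.85 and 10.23 in the 8 naive mice. A single untreated mouse reached the naive range, and the untreated mice were spread far more widely than the naive ones. The fitted difference was −2.07 ± 0.52 (SE), a 4.19-fold lower level (limma adjusted p = 0.00075). Ifit3 ran from 5.49 to 8.58 with a median of 7.03 in untreated mice, and from 8.85 to 9.57 with a median of 9.23 in naive mice, so the groups did not overlap. Its difference was −2.02 ± 0.47 (SE, limma adjusted p = 0.00031), and that of Ifit2 was −0.87 ± 0.30 (SE, limma adjusted p = 0.013).

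The transcription factors of the pathway moved in the same direction. Irf7, the factor that amplifies interferon production, lay at 5.33, 7.32 and 8.86 in untreated mice, against 9.33, 9.56 and 9.78 in naive mice. The groups were separate, and Irf7 was 3.19-fold lower in colitis (−1.67 ± 0.42 log2, SE, limma adjusted p = 0.00075). Stat2 lay at 5.03, 5.60 and 6.02 in untreated mice, against 5.997, 6.21 and 6.39 in naive mice, with a narrow overlap. It fell by 0.54 on the log2 scale, and Irf9, its partner in ISGF3, fell by 0.49.

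**Figure D1:**
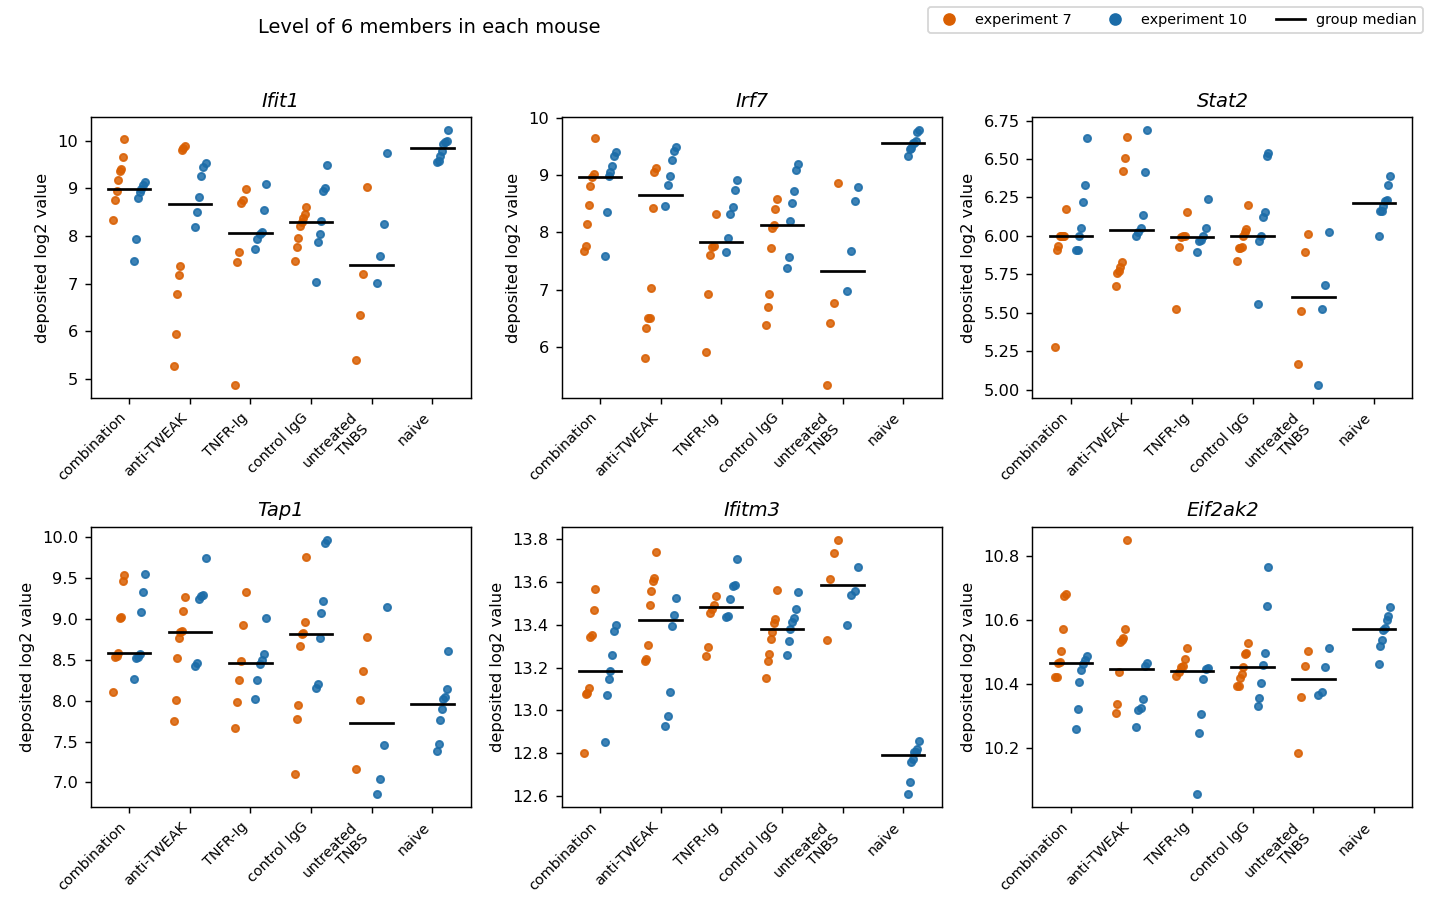
Deposited log2 level of 6 members in each of the 72 mice, by group, with mice of experiment 7 in orange, mice of experiment 10 in blue and the group median as a black line. Ifit1 and Irf7 are low and widely spread in untreated TNBS mice and tight in naive mice, Ifitm3 is above the naive range in all 8 untreated mice, and Tap1 has its lowest group median in untreated mice.

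The OAS enzymes make oligoadenylates that activate RNase L. Oas3 lay at 2.077, 2.17 and 4.36 in untreated mice, against 2.94, 4.08 and 5.05 in naive mice, and 5 of the 8 untreated arrays were within 0.1 of the floor, so the size of its difference (−1.41 ± 0.57, SE, limma adjusted p = 0.035) is limited by the floor. Oas3 did not pass in experiment 10 alone (adjusted p = 0.119), nor without replicate 1, 2 or 3 of experiment 7, replicate 3 or 5 of experiment 10 or the first naive array (differences from −1.34 to −1.27). Oas1a fell by 0.54, and Oasl1, which in mice represses the translation of Irf7 messenger RNA, fell by 0.94, a call that did not hold without untreated replicate 3 of experiment 7 (−0.72) or replicate 5 of experiment 10 (−0.83). Oasl2 had a difference of −0.77 that did not pass (limma adjusted p = 0.115). Oas2 was within 0.1 of the floor on 68 of the 72 arrays and reached 3.17 at most, in a control IgG mouse.

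Mx1 encodes a GTPase that blocks influenza virus, although many laboratory strains carry a defective allele. It fell by 0.68 on the log2 scale (limma adjusted p = 0.044), while Mx2 was at the floor on all 72 arrays. Of the RNA sensors, Dhx58 fell by 0.93 and Ifih1, a sensor of long double-stranded RNA, fell by 0.60. Ifih1 lay at 10.50, 10.80 and 11.14 in untreated mice, against 11.35, 11.54 and 11.64 in naive mice, without overlap. Eif2ak2, the kinase PKR that halts translation, differed little: 10.19, 10.42 and 10.51 in untreated mice, against 10.46, 10.57 and 10.64 in naive mice. It passed the test all the same (−0.20 ± 0.06, SE, limma adjusted p = 0.0047), but not in experiment 10 alone.

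Usp18, which removes Isg15 from proteins and restrains signalling at Ifnar2, lay at 4.72, 5.79 and 8.66 in untreated mice, against 6.64, 7.48 and 8.21 in naive mice. The untreated values spanned the whole naive range, and the difference of −1.16 ± 0.52 (SE) did not pass (limma adjusted p = 0.057). Herc6, the main Isg15 ligase of mice, had −0.25 and did not pass on its brightest probe set, whereas another of its probe sets did (−0.49, limma adjusted p = 0.026). The probe set that Isg15 shares with Gm9706 lay at 5.97, 7.13 and 9.11 in untreated mice, against 6.82, 7.38 and 8.94 in naive mice, and did not pass in any comparison (adjusted p = 0.545 here).

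Among the other antiviral effectors, Rsad2, which makes a chain-terminating nucleotide, lay at 8.55, 8.84 and 10.35 in untreated mice, against 10.24, 10.59 and 10.78 in naive mice. It was 2.35-fold lower, and Cmpk2, its chromosomal neighbour that supplies nucleotides, was 1.90-fold lower. Xaf1, an antagonist of an apoptosis inhibitor, did not overlap between the groups, with 7.61 to 9.02 in untreated mice and 9.13 to 9.71 in naive mice (−1.11 ± 0.23, SE, limma adjusted p = 6.5e-05). Rtp4, a chaperone of membrane receptors, fell by 1.15, Samd9l by 0.45 and Lgals3bp by 0.34. Of the ADP-ribosylation genes, Parp14 fell by 0.47 and Parp9 by 0.33, while Dtx3l, the ubiquitin ligase that pairs with Parp9, had −0.23 and did not pass (limma adjusted p = 0.063).

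Ifitm3 and Trim30a went the other way. Ifitm3, a membrane protein that blocks the entry of viruses from endosomes, lay at 13.33, 13.58 and 13.80 in untreated mice, against 12.61, 12.79 and 12.86 in naive mice, a difference of 0.80 ± 0.09 (SE) without overlap. Trim30a, which restrains Toll-like receptor signalling in mice, lay at 11.002, 11.54 and 11.97 in untreated mice, against 10.92, 11.15 and 11.38 in naive mice, with overlap (0.40 ± 0.12, SE, limma adjusted p = 0.0067). In all, 5 members lay wholly below naive (Ifit3, Irf7, Ifih1, Xaf1 and Samd9l) and Ifitm3 wholly above, where 8.82% and 7.05% of all genes did so.

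None of the 3 antigen processing members passed in this comparison. Psmb8, a catalytic subunit of the immunoproteasome, lay at 8.63, 9.16 and 10.14 in untreated mice, against 9.22, 9.56 and 9.87 in naive mice. Tap1, which carries peptides into the endoplasmic reticulum, lay at 6.85, 7.73 and 9.14 in untreated mice, against 7.39, 7.96 and 8.62 in naive mice. Its difference was 0.02 with a 95% interval from −0.61 to 0.64. Within experiment 10, the experiment that holds naive mice, 20 members fell and 2 rose (29.3% and 18.6% of all genes), with Ifit1 at −1.70, Ifit3 at −2.36 and Irf7 at −1.57.

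Upstream of these genes, interferon transcripts were hardly measurable. Ifna1, Ifna2, Ifna4, Ifna5, Ifna9, Ifna11, Ifnab, Ifnb1 and Ifng were within 0.1 of the floor on all 72 arrays, so their levels cannot be ordered. Ifnz, the interferon zeta gene of mice, was bright enough to be tested, with a mean level of 2.61, and had 0.25, which did not pass (limma adjusted p = 0.085). The receptor subunits rose in colitis, Ifnar2 by 0.93 ± 0.14 and Ifnar1 by 0.38 ± 0.08 (SE). Of 13 nucleic acid sensors and adaptors tested, 5 rose and 4 fell: among them the endosomal RNA sensor Tlr7 rose by 1.65 and the DNA pathway adaptor Sting1 by 1.496, while Zbp1, itself an interferon-inducible sensor, fell by 0.96 and Trim25 fell by 0.38. Irf1, which interferon gamma induces, fell by 0.61, and Irf3, the constitutive factor that starts interferon production, had −0.02 and did not pass. Of 6 negative regulators of the pathway tested, 2 rose, Socs3 by 2.67 and Ptpn6 by 0.72, and 2 fell, Trim24 by 0.26 and Pias1 by 0.25. Of 14 tested genes that mainly answer interferon gamma, such as Cxcl9, Ido1 and Gbp8, none was called in limma (4 had an unadjusted p under 0.05) and the median was 0.08.

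Markers of several cell types differed between the same groups. All 13 neutrophil markers tested rose, with a median of 7.15 log2 units, and their summed log2 level ran from 109.5 to 151.5 in untreated mice, against 34.0 to 49.0 in naive mice. Mmp8, Ngp, Camp and Clec4e were at the floor in every naive mouse. All 15 monocyte and macrophage markers rose (summed 136.4 to 156.2 in untreated mice, against 108.2 to 117.9 in naive mice). Of 17 colonocyte markers 14 fell (summed 214.0 to 220.2 in untreated mice, against 223.6 to 225.2 in naive mice), and all 11 smooth muscle markers fell. Of the plasmacytoid dendritic cell markers, those of the main producers of interferon alpha, 2 of 6 tested rose, Klra17 by 3.41 and Ly6d by 2.31, while Siglech, a defining marker, was at the floor in every mouse of both groups. The part of these shifts in the member differences was not tested.

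The members varied strongly between mice of the same group. The median SD of the 33 members was 0.60 in untreated mice of experiment 10 and 0.43 in those of experiment 7, where the median over all genes was 0.15 in each. In naive mice it was 0.18, against 0.12 over all genes. The heat map of all mice shows that low values ran through many members of the same mouse. In the 8 anti-TWEAK mice of experiment 7, replicates 5, 6 and 7 had the 3 highest values for 27 of the 33 members. In these mice, by replicate from 1 to 8, Irf7 was 6.51, 5.80, 6.32, 6.497, 8.42, 9.13, 9.05 and 7.02. For Ifit1 the values were 7.36, 5.93, 5.27, 6.78, 9.89, 9.80, 9.85 and 7.18. For Ifit1, replicates 5, 6 and 7 lay within the range of naive mice and the other 5 mice well under it, and for Irf7 all 8 lay under the naive range. S100a8, a neutrophil marker, was 14.61, 14.76, 14.71, 14.86, 14.55, 12.77, 11.45 and 14.85 in the same order, so it was low in replicates 6 and 7 and not in replicate 5. These mice were singled out after their values were seen, and their difference was not tested.

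**Figure D2:**
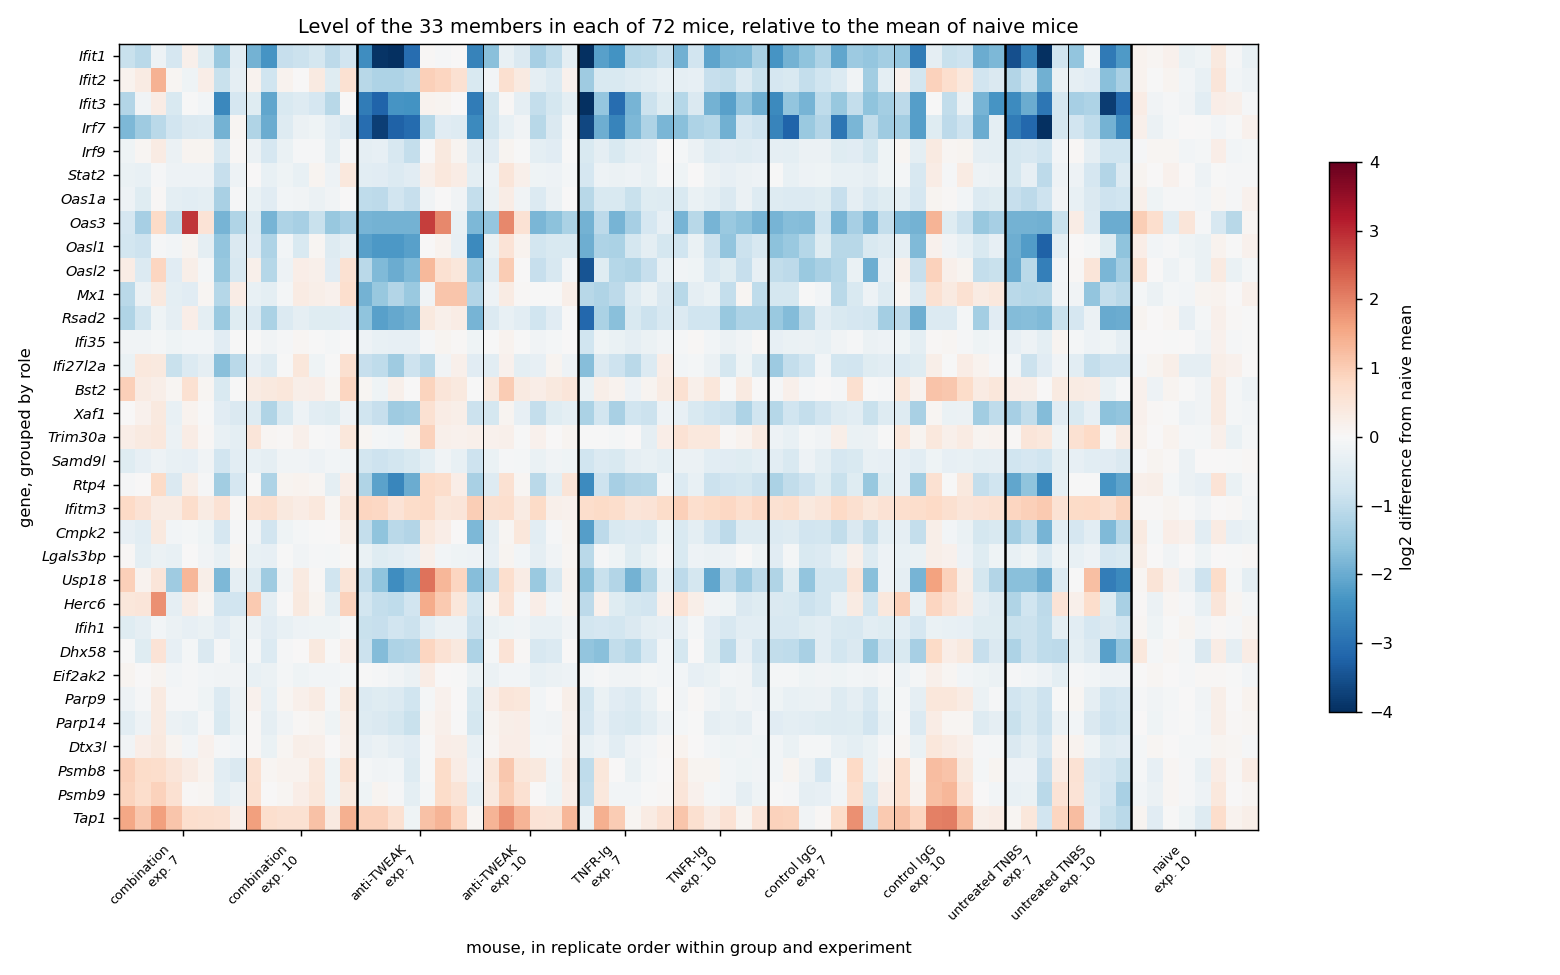
Log2 level of the 33 tested members (rows, grouped by role) in each of the 72 mice (columns, by group and experiment), relative to the mean of the 8 naive mice. Blue is lower and red is higher, and differences beyond 4 units are drawn at 4. Low values run through many members of the same column, as in the anti-TWEAK mice of experiment 7 other than replicates 5, 6 and 7, and Ifitm3 is above the naive mean throughout the TNBS groups.

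The second comparison set control IgG against untreated TNBS mice, which asks what an irrelevant antibody does in colitis. Of the 33 members, 7 rose and none fell, where 4.82% of all genes rose and 5.52% fell, and 18 members had an unadjusted p under 0.05. The 3 antigen processing genes were all among the 7. Tap1 lay at 7.10, 8.82 and 9.97 in control IgG mice, against 6.85, 7.73 and 9.14 in untreated mice. The groups overlapped widely, and the difference was 0.90 ± 0.27 (SE, limma adjusted p = 0.023). Psmb9 rose by 0.62, Psmb8 by 0.55, Mx1 by 0.78, Stat2 by 0.45, Parp9 by 0.37 and Dtx3l by 0.26. Of these, Stat2 was called with any single untreated mouse left out.

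The genes with the largest differences in colitis did not pass here. Ifit1 lay at 7.04, 8.29 and 9.49 in control IgG mice, against 5.39, 7.39 and 9.74 in untreated mice (0.70, 95% interval −0.17 to 1.58), and Irf7 had 0.58 with an interval from −0.13 to 1.29. Of the 14 genes that mainly answer interferon gamma, 10 rose, with a median of 0.91, led by Cxcl9 (1.82 ± 0.59), Ido1 (1.51 ± 0.46), Gbp8 (1.46 ± 0.30) and Iigp1 (1.205 ± 0.41, SE). Irf1 rose by 0.59, while Ifnar2 fell by 0.59 and Ifnar1 by 0.21. Beside these, 10 of 15 monocyte and macrophage markers fell (summed 132.7 to 147.3 in control IgG mice, against 136.4 to 156.2 in untreated mice) and 3 of 13 neutrophil markers fell, and their part was not tested. The count of 7 depended on single untreated mice: it was 17 without replicate 5 of experiment 7, 3 without its replicate 2, 2 without its replicate 3, and 1 without replicate 2, 3 or 5 of experiment 10. Within experiment 7 no member was called in limma, with 1 at an unadjusted p under 0.05 (0% of all genes rose and 0.0479% fell), and within experiment 10 there were 12, all higher (12.7% of all genes rose and 5.11% fell). In limma the interaction with the experiment was called for no member, and 3 had an unadjusted p under 0.05 (0.016% of all genes were called higher and 0% lower).

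The next comparisons asked what each agent changed relative to control IgG. Under TNFR-Ig no member passed in limma and 1 had an unadjusted p under 0.05, where 2.35% of all genes rose and 1.73% fell. The median was −0.17, and 31 of the 33 differences were negative. The members varied together between mice, so their signs are not independent of each other, and the share over all genes is not given. Mx1 came nearest, at 7.45, 7.88 and 8.74 in TNFR-Ig mice, against 7.56, 8.56 and 9.27 in control IgG mice (−0.57 ± 0.21, SE, limma adjusted p = 0.108). In experiment 10 alone, Mx1 passed at −0.87 (adjusted p = 0.0049) together with Eif2ak2 at −0.17, where 7.2% of all genes fell and 8.36% rose. Usp18 (−0.71), Psmb9 (−0.29), Psmb8 (−0.28) and Eif2ak2 (−0.08) followed by p. Irf7 lay at 5.92, 7.83 and 8.91 in TNFR-Ig mice, against 6.38, 8.13 and 9.19 in control IgG mice, with a difference of −0.15 and an interval from −0.78 to 0.48.

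Under anti-TWEAK no member passed in limma and none had an unadjusted p under 0.05, where 1.14% of all genes rose and 1.66% fell. The members of smallest p, given with their log2 differences, were Ifi35 (0.08), Parp14 (0.14), Oas3 (0.61), Dhx58 (0.28) and Xaf1 (0.22, limma adjusted p = 0.545). Irf7 lay at 5.80, 8.65 and 9.49 in anti-TWEAK mice, against 6.38, 8.13 and 9.19 in control IgG mice, and the interval of its difference ran from −0.45 to 0.75. Within experiment 10, Ifih1 (0.21) and Samd9l (0.17) passed, where 9.25% of all genes rose and 5.69% fell.

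The combination was followed by higher Dhx58, Xaf1 and Ifih1 and lower Ifitm3 than control IgG. In all 3 members rose and 1 fell, where 14.2% of all genes rose and 17% fell, so the members' shares were below those of all genes in this fit. The total of 4 was not stable: it was 2 without the filter on dim genes, 2 without the experiment 7 arrays run with experiment 10, 7 with array weights, 7 without the 2 arrays of lowest weight (replicate 7 of the combination and replicate 1 of TNFR-Ig, both in experiment 7) and 8 with the compared groups alone. Dhx58 lay at 5.53, 6.06 and 6.66 in combination mice, against 4.59, 5.36 and 6.87 in control IgG mice (0.55 ± 0.20, SE, limma adjusted p = 0.032). Ifih1 lay at 11.05, 11.26 and 11.48, against 10.85, 11.04 and 11.25 in control IgG mice (0.22 ± 0.06, SE, limma adjusted p = 0.0075). Xaf1 rose by 0.42 and Ifitm3 fell by 0.17. All groups overlapped. Irf7 was higher by 0.72 ± 0.30 (SE) and just failed (limma adjusted p = 0.056), with 7.58, 8.97 and 9.65 in combination mice, against 6.38, 8.13 and 9.19 in control IgG mice. Of the 14 genes that mainly answer interferon gamma, 1 fell (Cxcl10, by 1.08) and none rose, 2 had an unadjusted p under 0.05 in limma, and the median was −0.10. In the same comparison 10 of 13 neutrophil markers fell (summed 53.7 to 127.9 in combination mice, against 84.7 to 146.3 in control IgG mice), 7 of 10 T and NK cell markers rose, and 3 of 4 B cell markers rose. The median summed level of the 8 exocrine pancreas markers was 74.9 in combination mice, against 37.4 in control IgG mice, with 1 of them called. Their part was not tested. Within experiment 7 no member passed in limma, with 7 at an unadjusted p under 0.05 (2.98% of all genes rose and 5.47% fell), and within experiment 10 only Ifih1 did (0.20, where 9.98% rose and 7.57% fell).

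**Figure D3:**
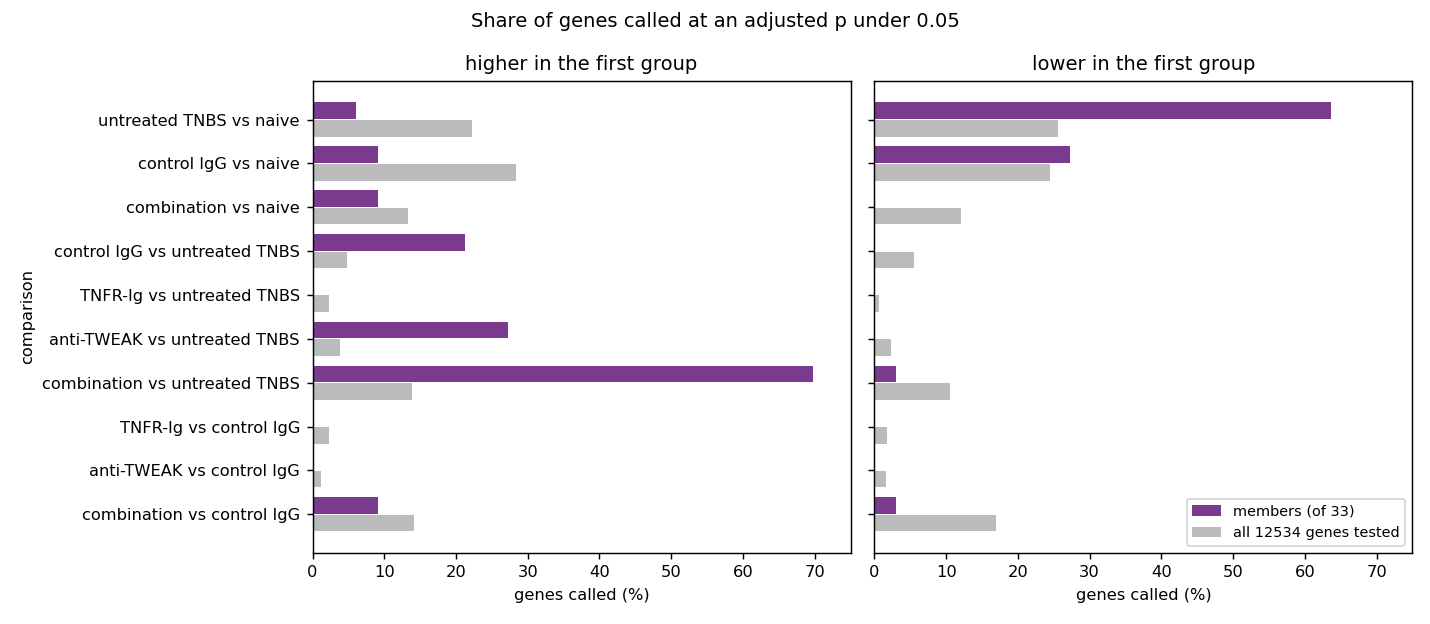
Share of the 33 members (purple) and of all 12534 tested genes (grey) called higher (left panel) and lower (right panel) in the first group of each comparison. The members exceed all genes among falls in untreated TNBS against naive mice. They also do so among rises in control IgG, anti-TWEAK and combination mice, each against untreated TNBS mice. They are below all genes in combination against control IgG mice.

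Against untreated TNBS mice, which are shared with the second comparison, the combination was followed by a rise of 23 members and a fall of 1, where 13.9% of all genes rose and 10.6% fell. The median of the members was 0.63, and that over all genes is not given. Untreated mice had no antibody, so the agents and the presence of an antibody cannot be told apart here. All 3 IFIT genes, Irf7, Irf9, Stat2, 3 of 4 OAS family genes, Mx1, the PARP and DTX3L genes and the antigen processing genes rose. Ifit3 lay at 6.70, 8.67 and 9.58 in combination mice, against 5.49, 7.03 and 8.58 in untreated mice, and was 2.83-fold higher (1.499 ± 0.40, SE, limma adjusted p = 0.0042). Ifit1 lay at 7.48, 8.996 and 10.04 in combination mice, against 5.39, 7.39 and 9.74 in untreated mice, and was 2.61-fold higher. Irf7 was 2.46-fold higher (1.30 ± 0.36, SE, limma adjusted p = 0.0054), Rtp4 2.32-fold and Tap1 2.00-fold. Ifitm3, at 12.80, 13.19 and 13.56 in combination mice, against 13.33, 13.58 and 13.80 in untreated mice, was the member that fell, by 0.37. Values of the groups overlapped for every member, as for nearly all genes: 0.0638% of all genes lay wholly higher and 0.0239% wholly lower.

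The count held when any single untreated mouse was left out, with 20 to 28 members called. Within experiment 7 it was 3 higher and 1 lower (2.82% and 4.17% of all genes), and within experiment 10 it was 17 higher and 1 lower (17.4% and 6.9%). The size differed for Ifit1, at 2.22 ± 0.75 in experiment 7 and 0.48 ± 0.40 in experiment 10 (SE), neither of which passed alone, and this difference was not tested. Ifit3 had 1.39 in experiment 7 and 1.58 in experiment 10. Neutrophil markers fell in 12 of 13 cases (summed 53.7 to 127.9 in combination mice, against 109.5 to 151.5 in untreated mice) and macrophage markers in 13 of 15, while Ifnar2 fell by 0.61. Their part in the member differences was not tested.

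Anti-TWEAK alone was followed by a rise of 9 members over untreated mice and a fall of none (3.82% and 2.28% of all genes), with Tap1 at 0.99, Ifit2 at 0.81, Dhx58 at 0.77, Cmpk2 at 0.66 and Stat2 at 0.53. Against the same untreated mice, control IgG had Tap1 at 0.90 and Stat2 at 0.45. Anti-TWEAK and the presence of an antibody cannot be told apart here, and against control IgG anti-TWEAK had no member called in the fit to both experiments. Of the 14 genes that mainly answer interferon gamma, 10 rose (summed 118.3 to 142.7 in anti-TWEAK mice, against 103.5 to 141.6 in untreated mice), and 4 of 15 macrophage markers fell (summed 124.8 to 153.8 in anti-TWEAK mice, against 136.4 to 156.2 in untreated mice). The median summed level of 13 neutrophil markers was 127.3 in anti-TWEAK mice, against 137.9 in untreated mice, and that of 10 T and NK cell markers was 50.4 in anti-TWEAK mice, against 43.7 in untreated mice. The part of these markers was not tested. The count of 9 members rested on single untreated mice. It was 19 without replicate 5 of experiment 7, 4 without replicate 1, 2 or 3 of experiment 7 or replicate 2 or 3 of experiment 10, and 2 without replicate 5 of experiment 10. In limma it was 0 within experiment 7 (0% of all genes in each direction, 1 member at an unadjusted p under 0.05) and 21 within experiment 10, 20 higher and 1 lower (21.8% and 7.88% of all genes). TNFR-Ig alone gave none in limma (2.36% of all genes rose and 0.646% fell), with 4 members at an unadjusted p under 0.05, and 2 members without replicate 5 of experiment 7. Set directly against TNFR-Ig, the combination had 5 members higher and 1 lower (2.21% and 4.5% of all genes): Ifit3 (1.09), Dhx58 (0.72), Ifit2 (0.72), Cmpk2 (0.61) and Ifih1 (0.22) were higher and Ifitm3 (−0.28) was lower. Within experiment 7 none of them passed in limma (0.0239% and 0.0638% of all genes, 11 members at an unadjusted p under 0.05), and within experiment 10 there was 1 in each direction (1.92% and 3.81%). In the same comparison 11 of 13 neutrophil markers fell (summed 53.7 to 127.9 in combination mice, against 103.9 to 134.2 in TNFR-Ig mice) and 9 of 15 macrophage markers fell (summed 120.9 to 145.8 in combination mice, against 131.7 to 155.8 in TNFR-Ig mice). Of the lymphocyte markers, 6 of 10 for T and NK cells and 1 of 4 for B cells rose, and the part of these markers was not tested. Set against anti-TWEAK, the combination had no member called in limma, with 2 at an unadjusted p under 0.05 and no gene of the whole array called in either direction. The interval for Irf7 in that comparison ran from −0.03 to 1.17.

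**Figure D4:**
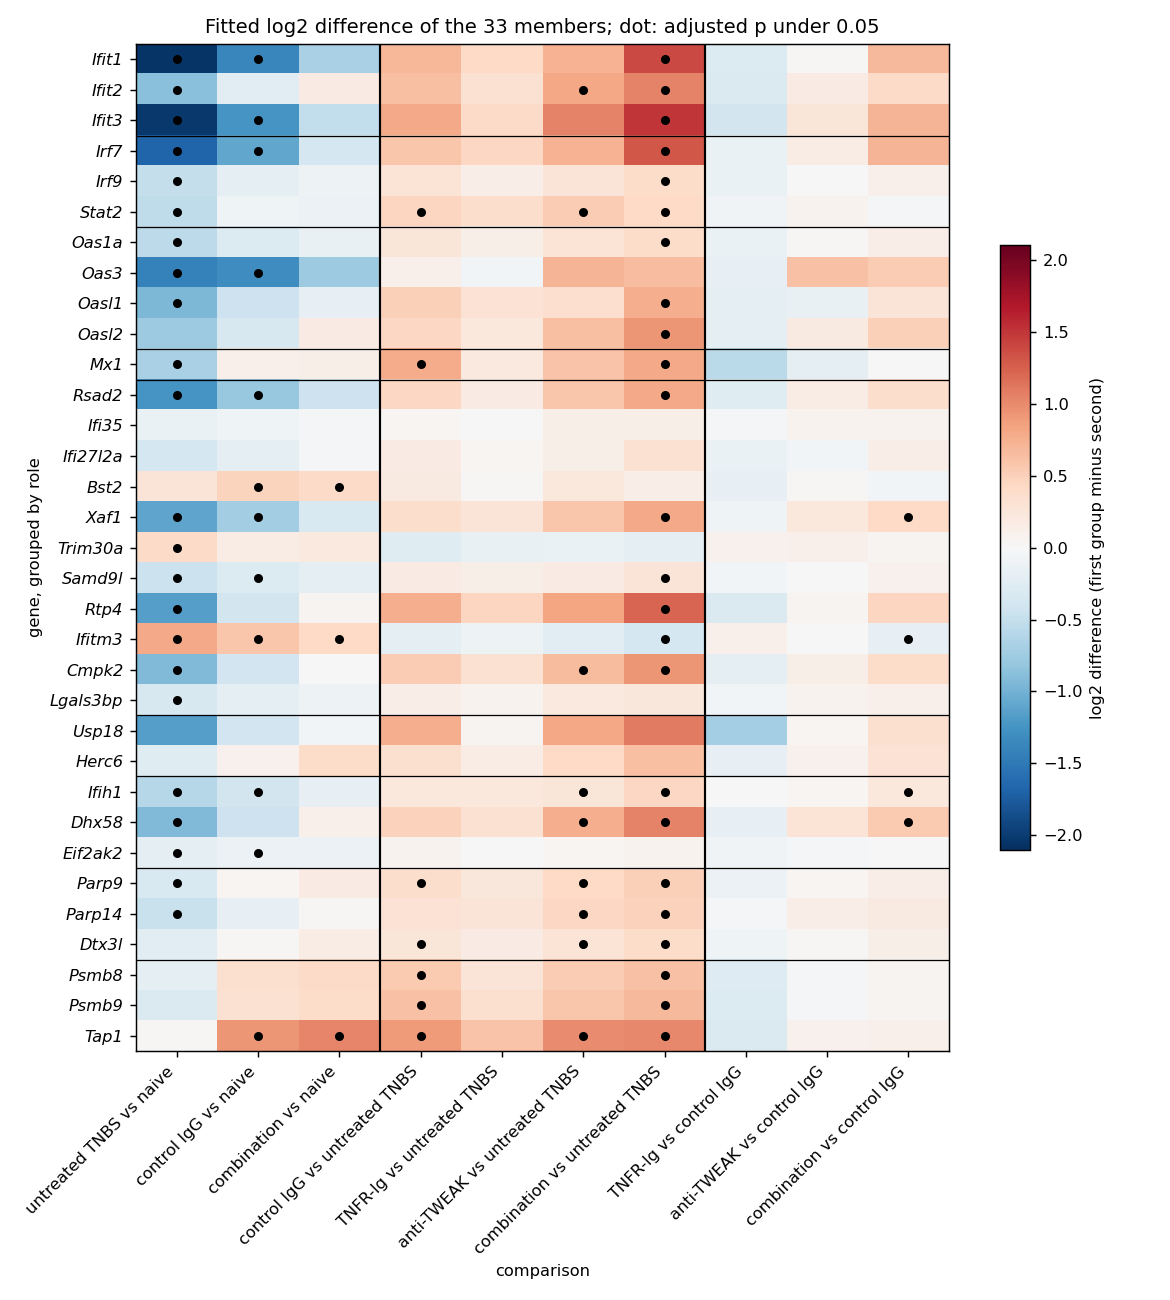
Fitted log2 difference of the 33 tested members (rows, grouped by role) in 10 comparisons (columns), red where the first group is higher and blue where it is lower, with a dot where the limma adjusted p is under 0.05. The first column is blue for most members, the column of combination against untreated TNBS is red with 23 rises, and the columns of TNFR-Ig and anti-TWEAK against control IgG have no dot.

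Relative to naive mice, control IgG mice had 9 members lower and 3 higher (24.5% and 28.4% of all genes). Ifit1 (−1.36), Oas3 (−1.31), Ifit3 (−1.23) and Irf7 (−1.09) were the lowest, and Tap1 (0.92), Ifitm3 (0.59) and Bst2 (0.46), a tether of budding virions, were higher. Within experiment 10, control IgG mice had 8 lower and 6 higher (26.8% and 29.5% of all genes), where Psmb9 (0.55), Psmb8 (0.51) and Trim30a (0.24) joined the higher members. Combination mice had none lower and 3 higher in the fit to both experiments (12% and 13.3% of all genes), the same Tap1 (1.02), Ifitm3 (0.42) and Bst2 (0.41). Within experiment 10, which holds the naive mice, combination mice had 8 lower and 3 higher (16% and 20.7% of all genes), with Oas3 at −1.24, Ifit1 at −1.22, Irf7 at −0.73, Rsad2 at −0.59 and Xaf1 at −0.52. In the fit to both experiments the interval for Ifit1 in combination against naive mice ran from −1.60 to 0.23. The comparison with naive mice across experiments rests on a common shift between them. In control IgG mice all 33 members were higher in experiment 10 than in experiment 7, with a median of 0.36, although Bst2 alone passed (0.54, limma adjusted p = 0.025, where 2.55% of all genes rose and 2.3% fell). Control IgG arrays of the experiments were in different array runs, so mice and array run cannot be told apart. The members varied together between mice, so their shared sign is not 33 separate results. The share of all genes with that sign and the median over all genes are not given, so no excess can be read from these values. No member passed the interaction of agent and experiment for TNFR-Ig, anti-TWEAK or the combination in limma, with 1, 5 and 2 members at an unadjusted p under 0.05. Of all genes 0%, 1.33% and 0.016% were called higher in these interactions and 0%, 0.383% and 0.016% lower.

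The members were then compared by mouse with Irf7, as deviations from the mean of the mouse's own group and experiment. The anti-TWEAK mice of experiment 7, where replicates 5, 6 and 7 had the 3 highest values for 27 of the 33 members, were left out. That choice was made after their values were seen. It left 64 mice, and the correlations with those mice kept are not given. P-values came from 100000 permutations within groups, two-sided, and were adjusted over the 12533 other genes tested. Of the 32 other members, 15 had a Pearson r above 0.5 with Irf7, against 6.19% of all genes, and the median was 0.48, against 0.03 over all genes. The adjusted p was under 0.05 for 25 members, among them Ifitm3 with a negative r, against 29.5% of all genes. Oasl1 was the closest member (r = 0.81, Spearman rho = 0.71, permutation p = 1e-05 for each, the smallest the permutations can give, adjusted p = 0.00024 and 0.00031), with r = 0.75 after the 2 mice farthest from the median were left out. Ifit1 followed (r = 0.76, rho = 0.71, r = 0.70 without those mice), then Ifih1 (0.72, rho = 0.66) and Rsad2 (0.71, rho = 0.66), each with permutation p = 1e-05 and r at or above 0.64 without those mice. Ranked by r over the 12533 other genes tested, Oasl1 was at 6, Ifit1 at 28, Ifih1 at 58 and Rsad2 at 73, so genes outside the set lay above them.

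Other members did not follow Irf7. Tap1 had r = 0.12 (rho = 0.02, permutation adjusted p = 0.608), Psmb8 0.24 (rho = 0.10, adjusted p = 0.238), Eif2ak2 −0.05 (rho = 0.03) and Trim30a −0.16 (rho = −0.12). Ifitm3 ran against it (r = −0.56, rho = −0.55, permutation p = 1e-05, adjusted p = 0.00024), with −0.70 in experiment 7, −0.40 in experiment 10 and −0.51 without the 2 farthest mice. Of 5 genes outside the set, S100a8 had r = −0.37 (rho = −0.44, permutation p = 0.00014, adjusted p = 0.0015), the colonocyte water channel Aqp8 had 0.43 (rho = 0.38, adjusted p = 0.0021) and Cxcl9 had −0.02 (rho = −0.14, adjusted p = 0.944). The sign of r was positive in both experiments for 28 of the 32 members, against 40.2% of all genes.

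**Figure D5:**
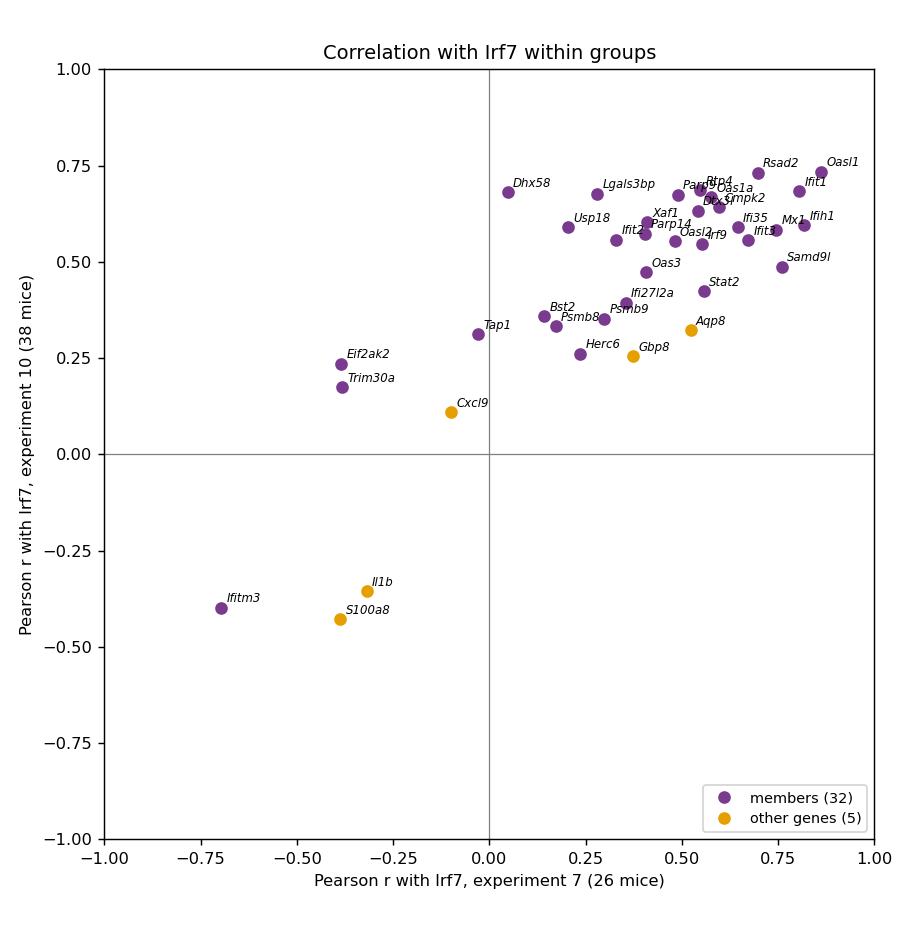
Pearson r with Irf7 across the 26 mice of experiment 7 (horizontal axis) and the 38 mice of experiment 10 (vertical axis), after the mean of each group and experiment was removed, for 32 members (purple) and 5 other genes (orange). Oasl1, Ifit1, Rsad2, Mx1 and Ifih1 lie at the upper right, Ifitm3 lies at the lower left with S100a8 and Il1b, and Tap1, Eif2ak2 and Trim30a lie near or left of 0 on the horizontal axis.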

How the data were processed

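The authors deposited a table of Affymetrix probe set levels, on a log2 scale as judged from the values. The submitters' processing notes name RMA and GCRMA, beside limma 3.4.5 and R 2.11.1; the sources used here do not say which of them made the values. Of 45101 probe sets, 34945 have 1 gene symbol, 932 several and 9160 none, and 64 are controls. Symbols were updated by Entrez identifier (99.4% matched). Each gene took its probe set of highest mean, and genes under the 40th percentile of probe set means (2.42) were left out.

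In R 4.3.3, limma 3.58.1 fitted 6 groups plus an experiment term over the 72 arrays, with moderated variances (eBayes), two-sided tests and 95% intervals. It was tested on simulated data. Replicates are separate mice. The members and lists were chosen with earlier results of these data known. Statistics are given in full for up to 10 called members of largest change per main comparison, or the 5 of smallest p where under 5 were called, and other members are named by role. The anti-TWEAK mice of experiment 7, Cxcl10, the correlates outside the set and members named in secondary comparisons were chosen after values were seen. Alternatives changed the filter, probe set rule, normalization, experiment term, array weights, moderation and mice. Figures were drawn with matplotlib 3.10.9 and correlations computed with scipy 1.17.1.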

Additional observations from a re-analysis of the deposited data

Results flagged for a closer look

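In the 8 naive mice, Samd9l of replicate 4 (12.63) was set apart from the next value (12.84) by more than Dixon's 95% criterion allows. In the 8 untreated TNBS mice, Eif2ak2 of replicate 5 of experiment 7 (10.19) was set apart in the same way from the next value (10.36). Of 66 such sets of values tested these 2 passed, and chance passes about 1 in 20.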

How the results depend on the processing

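The call counts of the members in untreated TNBS against naive mice stayed within 1.5 times the 23 reported under every alternative run (19 to 26 with each untreated mouse left out, 28 without the experiment term). No member among 21 named results changed sign under any alternative, and 293 such values stayed on their side of the threshold while 78 no longer passed. For control IgG against untreated mice, 7 members became 3 without the experiment term, 3 with the replicate block, 3 with the compared groups alone, 0 and 12 in experiments 7 and 10 alone, 16 with array weights, and 1 to 17 with each untreated mouse left out. Mice of the same replicate number correlated above 0.1 about as often as mice of different number, so the numbers were not taken as pairs. In experiment 7 it was 22 of 58 same-numbered pairs, against 153 of 398 pairs of different number. In experiment 10 it was 26 of 74, against 181 of 523. The replicate block moved no other main count by over 1.5 times. TNFR-Ig against control IgG gave 2 in experiment 10 alone and 1 each with array weights and with the compared groups alone, and anti-TWEAK gave 2 in experiment 10 alone. The combination against control IgG gave 2 without the filter on dim genes, 0 and 1 in experiments 7 and 10 alone, 7 with array weights, 8 with the compared groups alone, 2 without the experiment 7 arrays run with experiment 10, and 7 without the 2 arrays of lowest weight, an alternative chosen after seeing the data. The combination against naive gave 11 in experiment 10 alone. Anti-TWEAK against untreated mice gave 5 without the filter, 0 and 21 in experiments 7 and 10 alone, and 2 to 19 with each untreated mouse left out, TNFR-Ig gave 0 to 2, and the combination 20 to 28, the last alternatives being chosen after seeing the data. The combination against untreated mice gave 4 in experiment 7 alone, and against TNFR-Ig 2 without the filter, 0 in experiment 7 alone and 2 in experiment 10 alone. Fewer arrays enter the fits to 1 experiment, and otherwise the cause was not tested. Dim probe sets limit Oas2, Oas3 and Mx2.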
